A study of Mus musculus with 30 samples.

Results

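Epiregulin (Ereg), Purkinje cell protein 4-like 1 (Pcp4l1), importin 11 (Ipo11) and the serine protease inhibitor Serpinb6a are 4 of the 13027 features, genes or unnamed probes, on 2-colour arrays of mouse peripheral blood leukocytes. They were chosen by their day 1 minus untreated log ratios, which stood among the largest increases 1 day after cyclophosphamide. That choice used the untreated and the day 1 samples, so day 1 values and every difference from an untreated or a day 1 sample are given as a description with no test. Each gene has 1 probe, and all 4 were among the 6515 features with enough values to be tested. Blood leukocytes came from DBA/2 mice, an inbred strain, as 4 samples of untreated mice and as 4, 4 and 3 samples of mice 1, 2 and 5 days after an intraperitoneal injection of 83 mg per kg cyclophosphamide, an alkylating cytotoxic drug that is most toxic to dividing blood cell precursors. Each sample was measured in 2 technical replicates, labelled with Cy5 against a Cy3-labelled pool of DBA/2 bone marrow cells. A cell type label calls the pool untreated, while its treatment label names cyclophosphamide. A value is therefore a log ratio of blood over marrow, taken as log2 because the base is not given. Apart from a check of the label, only differences between blood samples are read. The labels call the samples independently harvested.

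Epiregulin is a growth factor of the epidermal growth factor (EGF) family. It is made as a membrane-bound precursor, is shed by metalloproteases, and activates the EGF receptor and ErbB4. Pcp4l1 is a small protein that resembles Pcp4 and, like it, carries an IQ motif. In some proteins such a motif binds calmodulin, the calcium sensor of cells. The motif alone does not make Pcp4l1 a calmodulin binder, and its binding was not examined here. Pcp4l1 is best described in brain. Ipo11 is a receptor of the importin beta family that carries cargo proteins, among them ubiquitin-conjugating enzymes of the Ube2e group and the ribosomal protein Rpl12, through nuclear pores with the help of the GTPase Ran. Serpinb6a belongs to the clade B serpins, which stay inside cells and trap serine proteases. Its human counterpart inhibits cathepsin G, a protease of neutrophil granules.

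Ereg (gene 13874) lies on mouse chromosome 5 at positions 91074617 to 91093649, and Pcp4l1 (gene 66425) on chromosome 1 at 171173264 to 171196268, in GRCm38.p6. Ipo11 (gene 76582) and Serpinb6a (gene 20719) are both on chromosome 13, at 106794439 to 106936958 and at 33917918 to 34002794. No source used here gives the probes' own positions, so these are positions of the genes from RefSeq, not of the probes. The source of promoter sequences held no entry for Ereg, which was high in the day 1 samples as well. The 250 bases before the annotated start of Pcp4l1, Ipo11 and Serpinb6a are shown because these genes were high in the same day 1 samples. They are written 5′ to 3′ on the strand of the gene, which is the minus strand for all 3, from RefSeq in GRCm38.p6, at chr1:171196269-171196518, chr13:106936959-106937208 and chr13:34002795-34003044. Capitals mark matches on either strand to 5 short motifs: the letters TATAAA for the TATA box, the letters CCAAT for the box of that name, the letters GATAA for sites of GATA factors, the letters CCGGAA for sites of ETS factors and the letters TGACGT for the core of the cAMP response element.
Pcp4l1: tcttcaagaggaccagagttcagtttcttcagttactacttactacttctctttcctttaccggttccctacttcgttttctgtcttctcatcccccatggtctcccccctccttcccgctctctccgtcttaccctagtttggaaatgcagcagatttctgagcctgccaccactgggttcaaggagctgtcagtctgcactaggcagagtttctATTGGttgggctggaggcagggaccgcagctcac
Ipo11: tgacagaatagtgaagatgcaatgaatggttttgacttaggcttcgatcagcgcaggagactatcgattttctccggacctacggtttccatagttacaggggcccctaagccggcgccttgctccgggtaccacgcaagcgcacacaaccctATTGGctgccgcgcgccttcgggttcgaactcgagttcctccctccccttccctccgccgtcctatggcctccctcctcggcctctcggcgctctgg
Serpinb6a: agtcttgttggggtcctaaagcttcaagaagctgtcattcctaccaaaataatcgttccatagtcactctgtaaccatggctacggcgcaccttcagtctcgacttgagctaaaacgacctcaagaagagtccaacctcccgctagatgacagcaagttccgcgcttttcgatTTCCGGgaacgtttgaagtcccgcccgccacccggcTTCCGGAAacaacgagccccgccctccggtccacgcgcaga
Pcp4l1 and Ipo11 each hold a single match, a CCAAT box on the opposite strand whose first base lies 34 bases before the start in Pcp4l1 and 97 bases before it in Ipo11. Of 32851 promoter windows of the same length, 33.8% hold that motif. Serpinb6a holds 3 ETS matches, 1 at 77 bases before the start on the opposite strand and an overlapping pair at 41 bases (opposite strand) and 39 bases (same strand). An ETS match occurs in 12.0% of the windows. The TATA, GATA and cAMP motifs, found in 12.4%, 22.6% and 6.5% of windows, were not matched in these 3 windows.

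Between 5314 and 9398 of 13443 probes had a value in a column, and 30 columns made 15 samples. As a check of the label, transcripts of circulating cells were above the marrow pool in untreated blood: marker means per untreated sample lay between 1.02 and 1.22 for NK cells, 0.66 and 1.20 for monocytes, 0.30 and 0.71 for B cells and 1.93 and 2.02 for platelets, on the log2 ratio scale. The neutrophil mean lay between -1.21 and -0.91, below the pool. Only 3 of the 8 T cell markers on the array had enough values to be tested, and of these 2 had a value in every sample. The NK cell mean also rests on only 2 markers with a value in every sample, of 4 tested. Of all tested features, 4.60% were called between day 1 and untreated samples, 12.7% between day 2 and untreated samples, 1.09% between day 5 and untreated samples and 25.5% between day 5 and day 2 samples, where a call is an adjusted p under 0.05 from limma. The day 1 count of 300 calls rested on single samples: it was 62, 60 and 62 without day 1 replicate 1, 2 or 4, 438 without day 1 replicate 3, 195, 164, 80 and 72 without untreated replicates 1 to 4, and it stayed within 1.5 times of 300 on omitting a day 2 or day 5 sample. The 826 calls of day 2 against untreated were 529 without untreated replicate 4. The 71 calls of day 5 against untreated were 42 and 40 without untreated replicate 3 or 4 and 27, 107 and 224 without day 5 replicates 1 to 3.

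All 4 genes were highest at day 1. In each, every day 1 sample lay above every untreated sample, with differences between 1.72 and 2.16 log2 units. Groups separated upwards in this way in 10.5% of all tested features at day 1, and since this contrast chose the genes, nothing is read from the count. By day 2 the means of all 4 had come down, and the genes then parted. Ereg and Serpinb6a were at or near the untreated range in the day 5 samples, and Pcp4l1 and Ipo11 stayed high in 2 of the 3 day 5 samples.

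**Figure D1:**
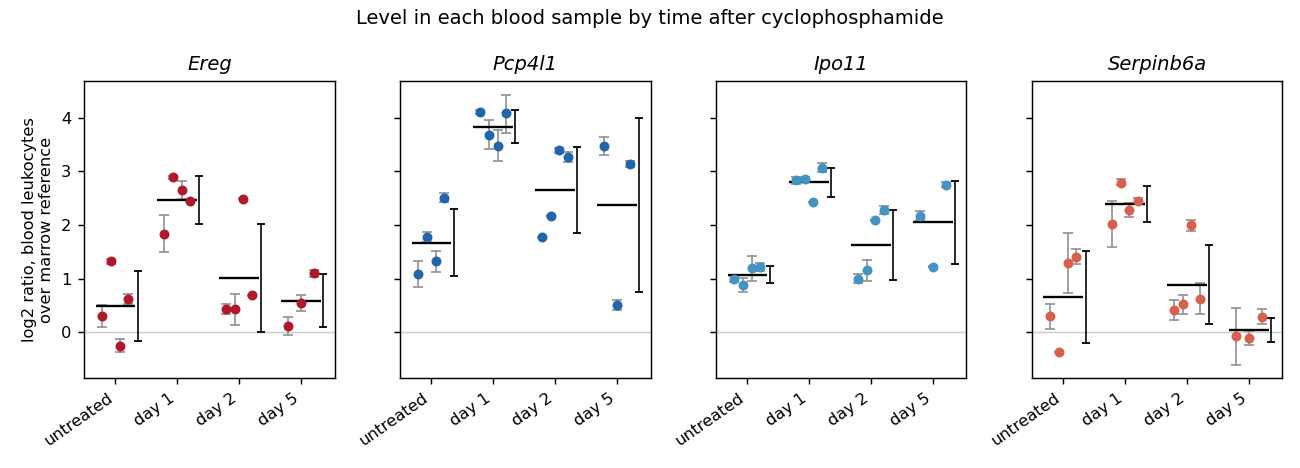
Log2 ratio of blood leukocytes over the marrow reference for the 4 genes in untreated samples and at days 1, 2 and 5, where coloured points are samples, grey ticks their technical replicates, black lines group means and black bars 1 SD to either side. All day 1 points lie above all untreated points in each panel, and the Pcp4l1 panel shows the widest day 5 group, from 0.51 to 3.47.

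Ereg had log2 ratios of 0.30, 1.32, -0.25 and 0.62 in untreated samples, 1.83, 2.89, 2.65 and 2.45 at day 1, 0.43, 0.43, 2.49 and 0.69 at day 2, and 0.12, 0.54 and 1.10 at day 5. Day 2 replicate 3 is as high as the day 1 samples, and the other 3 day 2 samples and all day 5 samples lie within the untreated range. At day 1 Ereg averaged 2.46 ± 0.45 (SD, n = 4), against 0.49 ± 0.66 (SD, n = 4) in untreated samples, a difference of 1.96 ± 0.42 (SE), or 3.90-fold if the values are log2. The day 2 difference from untreated was 0.51 ± 0.42 (SE), with a 95% interval from -0.39 to 1.42, and it was 0.02 without day 2 replicate 3 and 0.79 without untreated replicate 2. The day 5 difference from untreated was 0.09 ± 0.46 (SE), and its sign turned with quantile normalization (-0.14), with array weights (-0.06) and without untreated replicate 3 (-0.16) or day 5 replicate 3 (-0.17). Its 95% interval ran from -0.88 to 1.07. The order of the group means was day 1, day 2, day 5 and untreated, and the last 3 lay within 1 SD of each other.

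Serpinb6a had log2 ratios of 0.30, -0.37, 1.29 and 1.41 in untreated samples, 2.01, 2.79, 2.28 and 2.45 at day 1, 0.41, 0.52, 1.99 and 0.62 at day 2, and -0.07, -0.11 and 0.29 at day 5. The untreated samples are widely spread, from -0.37 to 1.41, and day 2 replicate 3 again lies with the day 1 samples. Untreated replicate 2, the lowest, has a value in 1 of its 2 technical replicates only, which was used alone. At day 1 Serpinb6a averaged 2.39 ± 0.33 (SD, n = 4), against 0.66 ± 0.85 (SD, n = 4) in untreated samples, a difference of 1.73 ± 0.38 (SE). Day 2 samples averaged 0.89 ± 0.74 (SD, n = 4) and day 5 samples 0.04 ± 0.22 (SD, n = 3), with differences from untreated of 0.23 ± 0.38 and -0.62 ± 0.41 (SE). The day 2 difference was -0.14 without day 2 replicate 3, -0.11 without untreated replicate 2 and up to 0.48 in the other omissions. Day 5 had the lowest mean of the 4 groups, and its samples lay inside the untreated range. The 95% interval of the day 5 difference ran from -1.49 to 0.25, and the difference was -0.96, -0.41 and -0.37 without untreated replicate 2, 3 or 4.

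Pcp4l1 had log2 ratios of 1.08, 1.78, 1.32 and 2.50 in untreated samples, 4.10, 3.68, 3.47 and 4.08 at day 1, 1.77, 2.17, 3.39 and 3.27 at day 2, and 3.47, 0.51 and 3.14 at day 5. Day 2 and day 5 are split: day 2 replicates 3 and 4 and day 5 replicates 1 and 3 lie above every untreated sample, and day 5 replicate 2 lies below all of them. At day 1 it averaged 3.83 ± 0.31 (SD, n = 4), against 1.67 ± 0.63 (SD, n = 4) in untreated samples, and the difference of 2.16 ± 0.54 (SE) was the largest increase of any tested feature at day 1. The differences from untreated were 0.98 ± 0.54 (SE) at day 2 and 0.70 ± 0.58 (SE) at day 5, with 95% intervals from -0.16 to 2.12 and from -0.53 to 1.93. The day 5 value rested on single samples, being 1.63 without day 5 replicate 2, 0.16 without day 5 replicate 1 and within that range in the other omissions.

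Ipo11 had log2 ratios of 0.99, 0.89, 1.19 and 1.22 in untreated samples, 2.83, 2.86, 2.42 and 3.07 at day 1, 1.00, 1.16, 2.09 and 2.28 at day 2, and 2.17, 1.22 and 2.75 at day 5. The untreated samples lie close together, with the smallest untreated SD of the 4 genes, and the same day 2 and day 5 replicates are high as for Pcp4l1. At day 1 it averaged 2.80 ± 0.27 (SD, n = 4), against 1.07 ± 0.16 (SD, n = 4) in untreated samples, a difference of 1.72 ± 0.31 (SE). At day 2 the difference from untreated was 0.56 ± 0.31 (SE), and 0.34 without day 2 replicate 4. The day 5 difference from untreated was 0.97 ± 0.33 (SE), with a 95% interval from 0.26 to 1.68. It was 0.62 without day 5 replicate 3 and 1.39 without day 5 replicate 2.

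**Figure D2:**
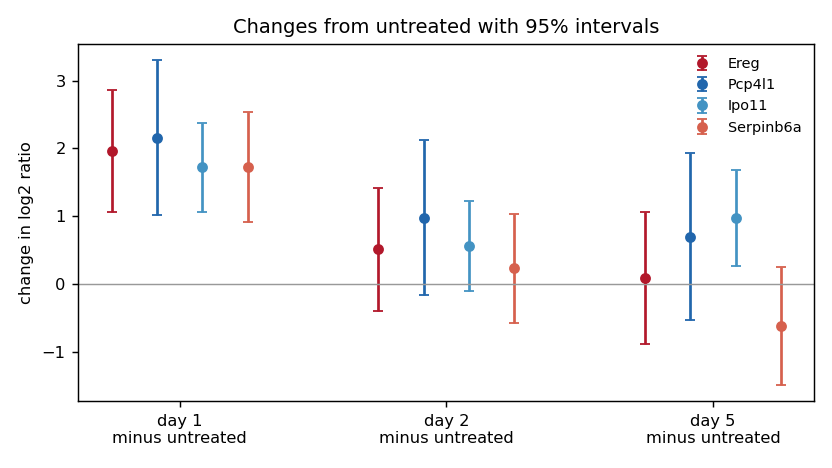
Change in log2 ratio from untreated samples at days 1, 2 and 5 for Ereg, Pcp4l1, Ipo11 and Serpinb6a, as points with 95% intervals from the limma fit over 15 samples. The day 1 contrast chose the genes, so the intervals describe the precision of the fitted differences and test nothing. The points lie between 1.72 and 2.16 at day 1, and at day 5 Ipo11 lies at 0.97 and Serpinb6a at -0.62.

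Set against day 1, the genes were lower by day 2 and day 5 to different extents. The day 2 minus day 1 differences were -1.45 ± 0.42 (SE) for Ereg, -1.50 ± 0.38 for Serpinb6a, -1.18 ± 0.54 for Pcp4l1 and -1.16 ± 0.31 for Ipo11. In 3 of the 4, all but Ereg, every day 2 sample lay below every day 1 sample, a separation seen in 4.82% of tested features. For Serpinb6a the margin was narrow, with 1.99 in day 2 replicate 3 against 2.01 in day 1 replicate 1. Their technical replicates overlapped, at 2.10 and 1.89 for the former and 1.59 and 2.44 for the latter. At day 5 the differences from day 1 were -1.87 ± 0.46 (SE) for Ereg, -2.35 ± 0.41 for Serpinb6a, -1.46 ± 0.58 for Pcp4l1 and -0.75 ± 0.33 for Ipo11. All but Ipo11 had day 5 samples wholly below the day 1 samples, against 16.0% of tested features. Because the genes were chosen for high day 1 values, these lower later values are partly set by the choice.

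The difference between day 5 and day 2 uses no sample that chose the genes. The spread behind its SE and p was estimated from all 15 samples, untreated and day 1 samples included. In this comparison 0 of the 4 passed the test with limma, 0 also at an unadjusted p under 0.05, where 25.5% of all tested features were called. Serpinb6a had the largest difference, -0.85 ± 0.41 (SE, limma unadjusted p = 0.055, adjusted p = 0.14), and its day 5 samples all lay below its day 2 samples, as did 16.0% of tested features. Ereg differed by -0.42 ± 0.46 (SE, limma adjusted p = 0.55), Pcp4l1 by -0.27 ± 0.58 (limma adjusted p = 0.78) and Ipo11 by 0.41 ± 0.33 (limma adjusted p = 0.40). The 95% intervals ran from -1.72 to 0.02 for Serpinb6a, -1.40 to 0.55 for Ereg, -1.50 to 0.96 for Pcp4l1 and -0.30 to 1.12 for Ipo11. The sign for Ereg turned to 0.07 without day 2 replicate 3, and that for Pcp4l1 to 0.66 without day 5 replicate 2. Serpinb6a differed by -0.48 (limma adjusted p = 0.38) without day 2 replicate 3. Ipo11 differed by 0.06 without day 5 replicate 3 and by 0.83 without day 5 replicate 2.

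In the order of day 1 minus untreated differences over all 6515 tested features, which is the order that the choice of the genes used, Pcp4l1 stood at place 1, Ereg at 2, Serpinb6a at 8 and Ipo11 at 9. The nearest named genes outside the 4 were Treml1, a receptor stored in platelet granules, just below Ereg (1.96), Mmd just above Serpinb6a (1.83) and Pf4, platelet factor 4, just below Ipo11 (1.71). Their later differences from untreated were 0.92 at day 2 and 0.91 at day 5 for Treml1, 0.49 and 0.41 for Mmd, and 0.09 and 0.70 for Pf4.

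The 2 technical replicates of a sample differed by a median of 0.19 log2 units for Ereg, 0.20 for Pcp4l1, 0.14 for Ipo11 and 0.32 for Serpinb6a, against 0.12 over all probes. The widest pair differed by 0.70 for Ereg, 0.71 for Pcp4l1, 0.48 for Ipo11 and 1.12 for Serpinb6a, each less than that gene's day 1 difference from untreated. Of the 30 columns, 29 held a value for Serpinb6a and all 30 for the other 3 genes.

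Pcp4l1 and Ipo11 were high and low in the same day 2 and day 5 samples as Treml1. Treml1 had log2 ratios of 1.09, 1.83, 1.66 and 2.06 in untreated samples, 3.81, 3.70, 3.53 and 3.41 at day 1, 1.97, 2.21, 3.11 and 3.02 at day 2, and 3.19, 1.18 and 3.35 at day 5. Its high day 2 replicates 3 and 4, its high day 5 replicates 1 and 3 and its low day 5 replicate 2 are the same as for Pcp4l1. Over the 15 samples Pearson's r with Pcp4l1 was 0.968, first among 3562 named genes, and 0.95 for deviations from group means, which the choice of day 1 does not set. The next genes for Pcp4l1 were Fnbp4 (r = 0.913), Pcmt1, a repair enzyme of damaged proteins (0.908), Olfr629 (0.907) and Acot12 (0.903). Fnbp4, Olfr629 and Acot12 had day 1 differences from untreated of 0.34, 0.53 and 0.30, far below the 2.16 of Pcp4l1. That of Pcmt1 was 1.61. Ipo11 was most like Gatad1 (r = 0.952), Nudt3, a phosphatase of inositol pyrophosphates (0.944), Ro60, an RNA-binding autoantigen (0.937), Treml1 (0.924) and Pcmt1 (0.922). Pcp4l1 and Ipo11 had r = 0.89 with each other and 0.83 for deviations from group means. These correlations describe the 15 samples, which share the marrow reference and 4 group levels.

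Ereg and Serpinb6a were less close to single genes and to each other. Ereg was most like Prr13 (r = 0.875), Ncstn, a subunit of gamma-secretase (0.850), Bmp6, a bone morphogenetic protein (0.839), Chrna7, a nicotinic receptor subunit (0.835), and Ppil4 (0.818). These 5 had day 1 differences from untreated between 0.32 and 0.76, far below the 1.96 of Ereg. Serpinb6a was most like Trnp1 (r = 0.875), Rbpms2 (0.874), the T-helper and NK transcription factor Tbx21 (0.858), P2rx1, the ATP-gated channel of platelets (0.854), and Gsto1, a glutathione transferase (0.852). Trnp1 and Tbx21 had day 1 differences of 0.40 and 0.42, far below the 1.73 of Serpinb6a. Those of Rbpms2, P2rx1 and Gsto1 were 1.51, 1.48 and 1.28. With each other Ereg and Serpinb6a had r = 0.76, and 0.34 for deviations from group means. They shared the high day 2 replicate 3, while their order in untreated samples differed, with replicate 2 the highest for Ereg and the lowest for Serpinb6a.

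**Figure D3:**
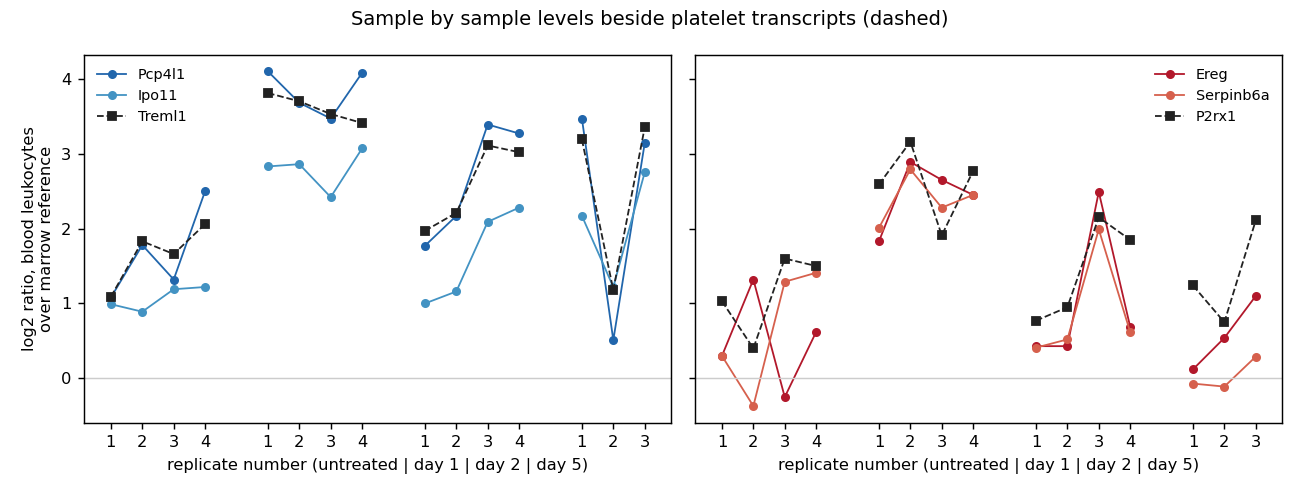
Log2 ratio over marrow in each of the 15 samples, grouped as untreated, day 1, day 2 and day 5, for Pcp4l1 and Ipo11 with the platelet transcript Treml1 (left) and for Ereg and Serpinb6a with the platelet transcript P2rx1 (right). Lines join the samples of a group and replicate numbers have no order; Pcp4l1, Ipo11 and Treml1 are high in day 2 replicates 3 and 4 and low in day 5 replicate 2, and Ereg and Serpinb6a share a high day 2 replicate 3 at 2.49 and 1.99.

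Because some platelet transcripts moved with these genes, the whole marker list is given. Of 21 platelet markers, 15 were on the array and 7 were tested, all with values in every sample: Clu, F2rl2, Itga2b, P2rx1, Pf4, Ppbp and Treml1. Their mean per sample lay between 3.25 and 3.52 at day 1, 1.95 and 3.10 at day 2 and 2.08 and 3.40 at day 5, against 1.93 to 2.02 in untreated samples. At day 2 it was 1.95, 2.26, 3.10 and 2.88 in replicates 1 to 4, and at day 5 it was 3.09, 2.08 and 3.40, so the samples high for Pcp4l1 and Ipo11 were also those with a high marker mean. The single markers were not alike in this. Over the 15 samples r with Pcp4l1 lay between 0.66 and 0.97 for 6 of the 7 and was -0.00 for Ppbp, and r with Ipo11 lay between 0.83 and 0.92 for the same 6 and was -0.03 for Ppbp. With Serpinb6a the 6 lay between 0.31 (F2rl2) and 0.85 (P2rx1) and Ppbp at -0.07, and with Ereg all 7 lay between 0.35 (Ppbp) and 0.70 (P2rx1, Treml1). The day 1 step that chose the genes enters these r. For deviations from group means, which the choice does not set, r with Ereg lay between 0.00 (F2rl2) and 0.52 (Itga2b). With Serpinb6a it lay between -0.32 (Ppbp) and 0.76 (P2rx1), with Pcp4l1 between -0.28 (Ppbp) and 0.95 (Treml1), and with Ipo11 between -0.42 (Ppbp) and 0.86 (P2rx1, Pf4). Ppbp had 3.85, 2.09, 3.03 and 1.97 at day 2 and 2.28, 2.73 and 2.73 at day 5, with its highest day 2 value in replicate 1, where Pcp4l1 and Ipo11 were lowest. At day 1, 5 of the 7 were called higher and 0 lower, with a median change of 1.48, against 2.29% called higher and a median of 0.03 over all features. They were Treml1 (1.96 ± 0.39, SE, limma adjusted p = 0.016), Clu, clusterin (1.70, adjusted p = 0.022), P2rx1 (1.48, adjusted p = 0.037), Itga2b, the fibrinogen receptor chain (1.37, adjusted p = 0.013), and F2rl2, a protease-activated receptor (1.33, adjusted p = 0.025). Pf4 changed by 1.71 and Ppbp, another platelet chemokine, by 0.51 without passing (limma adjusted p = 0.12 and 0.56). At day 5, F2rl2 alone was called (1.42, limma adjusted p = 0.048), where 0.261% of all features were called higher. These calls rested on single samples and settings: without day 1 replicate 1 or 2, Treml1, Clu, P2rx1 and F2rl2 lost theirs, as did Itga2b without replicate 2, and quantile normalization ended all but that of F2rl2. Clu also lost its call without untreated replicate 4 and with the robust prior, P2rx1 without any 1 of the untreated replicates, without day 1 replicate 4 and with no filter, and F2rl2 without untreated replicate 1, 2 or 4, without day 1 replicate 4 and with the replicate block. The F2rl2 call of day 5 was lost in 18 of 24 alternatives, among them the omission of any 1 untreated or day 1 replicate, of day 2 replicate 2, 3 or 4 or of day 5 replicate 1 or 3. Whether more platelets among the cells or more RNA per cell lay behind the higher values cannot be told apart in bulk samples, and the part of platelets in the rises of the 4 genes was not tested.

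The pathways around the 4 genes were examined through 10 lists of 145 genes, 88 of them on the array and 46 tested, the 4 genes left out. At day 1, 1 of the 46 was called (2.17%, against 4.60% of all features, 2.29% higher and 2.32% lower), and 10 had an unadjusted p under 0.05. At day 2, 8 were called, 3 higher and 5 lower (17.4%, against 12.7%; 4.83% of all features were called higher and 7.84% lower). At day 5, 0 were called by limma, against 1.09% of all features, while 11 had an unadjusted p under 0.05. Between day 5 and day 2, 11 were called, 6 higher and 5 lower (23.9%, against 25.5%; 12.8% higher and 12.7% lower). A count of 0 in lists as short as these, 2 to 7 tested genes, does not set a list apart from all features. The median change of the 46 was -0.02, -0.03, 0.02 and 0.01 in these comparisons. Markers of other cells moved in the same comparisons. At day 2, 5 of 7 neutrophil markers were called higher (mean per sample -0.73 to 0.14, against -1.21 to -0.91 in untreated samples), 5 of 6 monocyte markers lower (-0.24 to -0.15, against 0.66 to 1.20) and 3 of 5 basophil and mast cell markers lower (-0.47 to -0.33, against -0.03 to 0.19). Ngp and Cd177 of the neutrophil list changed by -0.38 and -0.62 without passing (limma adjusted p = 0.48 and 0.079). Called lower as well were 2 of 5 erythroid, 2 of 4 NK cell, 2 of 6 B cell and 1 of 6 endothelial markers. Of 3 T cell markers, 1 was called higher. Over all features, 4.83% were called higher and 7.84% lower at day 2. At day 1, 3 of 6 monocyte markers were called lower (0.15 to 0.68, against 0.66 to 1.20) and 2 of 6 endothelial markers higher, Kdr by 0.97 and Plvap by 0.88 (list mean 0.08 to 0.41, against -0.11 to -0.02). Flt1, Cdh5, Pecam1 and Tek of the endothelial list changed by -0.50, -0.10, -0.00 and 0.21 without passing. Of the neutrophil list, Cd177 was called lower (-1.25, limma adjusted p = 0.0095), as was 1 of 6 B cell markers. Over all features, 2.29% were called higher and 2.32% lower at day 1. At day 5 relative to day 2, 4 of 7 neutrophil markers were called lower (-1.53 to -1.07, against -0.73 to 0.14 at day 2), 4 of 6 monocyte markers higher (0.63 to 0.88, against -0.24 to -0.15) and 4 of 5 basophil and mast cell markers higher (0.18 to 0.49, against -0.47 to -0.33). Their part in the values of the listed genes was not tested.

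Of the EGF family ligands, 4 besides Ereg were tested, and 1 rose at day 1, where 2.29% of all features were called higher. Hbegf, heparin-binding EGF-like growth factor, also a ligand of the EGF receptor and ErbB4, had log2 ratios of 0.61, 0.64, 0.09 and 0.26 at day 1, against -0.34, -0.21, -0.57 and -0.08 in untreated samples. Its 4 day 1 samples all lay above the untreated ones, as in 10.5% of tested features, and the change was 0.70 ± 0.19 (SE, limma adjusted p = 0.048). At days 2 and 5 it differed from untreated by 0.23 and 0.17 (limma adjusted p = 0.50 and 0.72). The call was lost in 12 of 23 alternatives: with technical replicate 1 alone, with no filter, with the replicate block, without any 1 of the untreated replicates, without day 1 replicate 1, 2 or 4, and without day 2 replicate 3 or 4. Egf, Nrg3 and Nrg4 had day 1 changes of 0.33, 0.20 and 0.12 that did not pass (limma adjusted p = 0.19, 0.45 and 0.65), and the list's median was 0.27, against 0.03 over all features. Of receptors, shedding enzymes and adaptors, 3 were tested and 0 were called by limma in any of the 4 comparisons, with 1 at an unadjusted p under 0.05 at day 5 and 0 in the others. Over all features, 4.60%, 12.7% and 1.09% were called at days 1, 2 and 5, and 25.5% between day 5 and day 2. Egfr, the EGF receptor, had changes of 0.29, 0.31 and 0.42 at days 1, 2 and 5 (limma adjusted p = 0.31, 0.22 and 0.23).

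Of 7 tested response genes of the ErbB and ERK pathway, 0 were called at day 1 by limma, against 4.60% of all features, 1 had an unadjusted p under 0.05, and their median was -0.11. At day 2, Spry1, a feedback inhibitor of growth factor signalling, fell by 0.52 ± 0.12 (SE, limma adjusted p = 0.0082), with ratios of -0.42, -0.16, -0.28 and -0.52, against 0.13, 0.21, 0.05 and 0.32 in untreated samples. At day 5 relative to day 2, the ETS factor Etv4 rose by 0.83, the AP-1 component Fosl1 by 0.47 and Spry1 by 0.39 (limma adjusted p = 0.012, 0.0061 and 0.034). The calls of Etv4 and Spry1 were lost without day 5 replicate 2 and with technical replicate 2 alone, that of Etv4 also without day 5 replicate 1, and that of Spry1 also without day 5 replicate 3 or day 2 replicate 1, 3 or 4 and with array weights. The Fosl1 and Spry1 calls were lost when only the 2 groups were fitted.

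Around Ipo11, 0 of 7 other importin and exportin receptors were called at day 1, day 2 or day 5 against untreated samples, with 0, 1 and 2 at an unadjusted p under 0.05. Of all features, 4.60%, 12.7% and 1.09% were called in these comparisons. The day 1 changes of the 7 receptors had a median of -0.04. Cse1l, which returns importin alpha to the cytoplasm, was lower at day 5 than at day 2, at -1.40, -1.53 and -0.89, against -0.50, -0.54, -0.66 and -0.65, a change of -0.69 ± 0.15 (SE, limma adjusted p = 0.0038). Of the Ran cycle, Ranbp3, an export cofactor, fell by 0.48 over the same interval (limma adjusted p = 0.0031). Of the cargoes, Ube2e1, Ube2e3 and Rpl12 had day 1 changes of -0.09, -0.09 and 0.10, none of which passed (limma adjusted p = 0.83, 0.64 and 0.89). Ube2e3 was higher at day 5 than at day 2 by 0.40 ± 0.11 (SE, limma adjusted p = 0.012), a call lost with technical replicate 1 alone and when only the 2 groups were fitted. Rpl12 had a day 5 change from untreated of -0.82 that did not pass (limma adjusted p = 0.24).

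Of 6 other tested clade B serpins, 2 rose and 1 fell at day 2, where 12.7% of all features were called, and Serpinb3a, Serpinb7 and Serpinb11 had changes of -0.13, -0.10 and 0.18 that did not pass (limma adjusted p = 0.76, 0.65 and 0.67). Serpinb9b fell by 1.02 ± 0.20 (SE, limma adjusted p = 0.0031), with -0.18, 0.07, 0.12 and 0.57 at day 2, against 1.25, 0.59, 1.14 and 1.69 in untreated samples. Serpinb9g rose by 0.69 ± 0.16 (SE, limma adjusted p = 0.0082) and Serpinb9c by 0.39 (limma adjusted p = 0.027), and both were lower again at day 5 than at day 2, by changes of -0.80 and -0.58 (limma adjusted p = 0.0025 and 0.0020). The day 2 call of Serpinb9c was lost without untreated replicate 2 or 4 or day 2 replicate 1 or 4, and with technical replicate 2 alone. Genes of the Serpinb9 group are close copies in mouse, so a probe of one may also bind transcripts of another. At day 1, 0 of the 6 tested serpins were called by limma, against 4.60% of all features, also 0 at an unadjusted p under 0.05. None of the tested 6 was a Serpinb6 or Serpinb1 paralog.

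Such serpins inhibit serine proteases, and a list of those of leukocytes also held F2, prothrombin, which is not a leukocyte protease. Of this list 5 were tested, F2 among them, and 2 fell at day 2, where 7.84% of all features were called lower. Tpsb2, a mast cell tryptase, fell by 0.82 ± 0.14 (SE, limma adjusted p = 0.0010) and rose by 1.09 at day 5 relative to day 2 (limma adjusted p = 9.66e-05). Gzmk, a granzyme, fell by 0.84 (limma adjusted p = 0.045), a call lost in 13 of 23 alternatives, among them the omission of untreated replicate 1 or 4, of day 2 replicate 2 or 3, of any 1 day 1 replicate or of day 5 replicate 1. Ctsg, cathepsin G, had -0.92, -0.29 and -0.24 in the 3 day 1 samples with a value, against -0.89, -1.25, -1.79 and -2.03 in untreated samples, a change of 1.01 ± 0.35 (SE) that did not pass (limma adjusted p = 0.11). Prtn3, Tpsb2, Gzmk and F2 had day 1 changes of -0.39, -0.51, -0.24 and -0.24, none of which passed. The day 1 median of the 5 was -0.24, against 0.03 over all features.

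Pcp4 itself was not among the tested genes. Of 3 tested relatives with an IQ motif, Nrgn, neurogranin, had the day 1 values 3.86, 3.20, 3.67 and 3.41, against 2.58, 2.68, 2.91 and 2.43 in untreated samples. These groups do not overlap, as in 10.5% of tested features separated upwards at day 1. The change of Nrgn, 0.88 ± 0.30 (SE), did not pass (limma adjusted p = 0.097). Iqgap1, a scaffold protein that binds calmodulin, rose at day 2 by 0.99 ± 0.17 (SE, limma adjusted p = 0.0010), with 1.15, 1.28 and 1.53 in 3 day 2 samples, against 0.39, 0.20, 0.43 and 0.29 in untreated samples. It was lower at day 5 than at day 2 by a change of -1.40 ± 0.18 (SE, limma adjusted p = 5.72e-05), and Gap43 was higher by 0.68 (limma adjusted p = 0.011), a call lost without day 5 replicate 1 or 2 and when only the 2 groups were fitted. Of calmodulin, its kinases and its phosphatase, 6 were tested, and 0 were called at day 1 by limma, against 4.60% of all features (2 had an unadjusted p under 0.05). Camk2d fell at day 2 by 0.65 (limma adjusted p = 0.045), where 7.84% of all features were called lower. The Camk2d call was lost in 14 of 24 alternatives, among them the omission of untreated replicate 1, 3 or 4, of day 1 replicate 1, 2 or 4 or of day 2 replicate 1, 2 or 3.

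**Figure D4:**
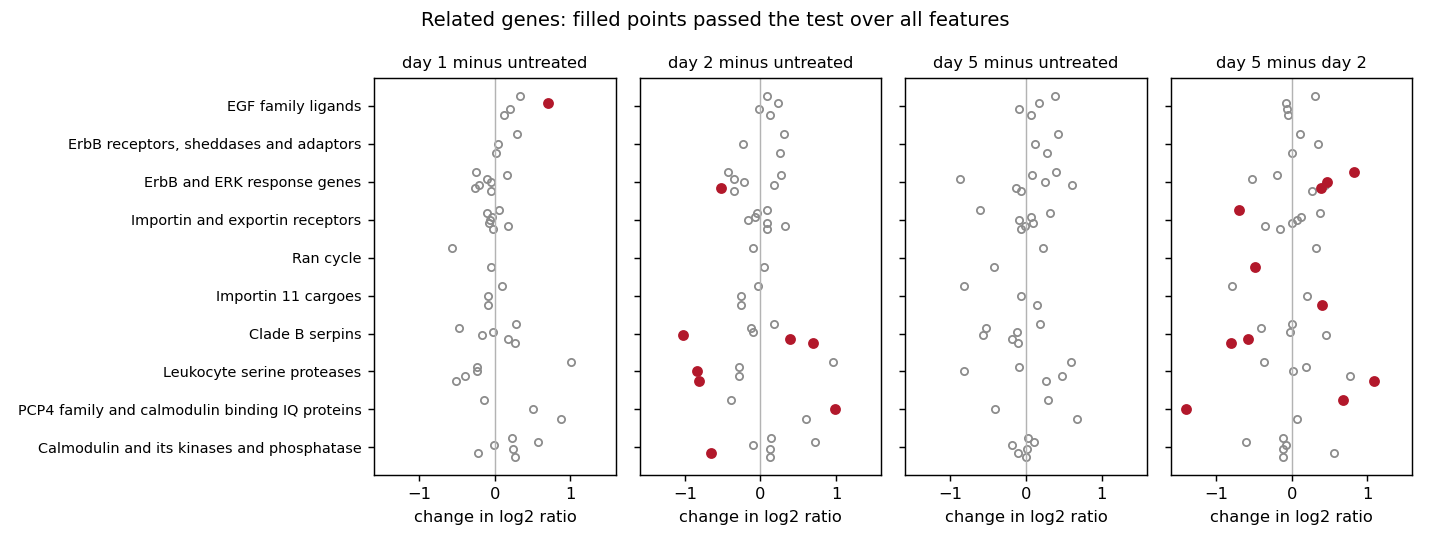
Change in log2 ratio of each tested gene of the 10 related lists, in rows, for day 1, day 2 and day 5 minus untreated and for day 5 minus day 2, in panels; filled points passed an adjusted p under 0.05 over all features. The day 1 panel holds 1 filled point (Hbegf at 0.70), the day 5 minus untreated panel 0, and the day 5 minus day 2 panel 11 calls.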

How the data were processed

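The deposited log2 values, made by the authors, are log ratios of Cy5 (blood) over Cy3 (marrow pool) per the labels' dyes. No source used here gives the scanner, background correction, normalization or the reason for empty cells. The log base is not given and was taken as 2; column medians lay between -0.0028 and 0.0254, so values show unequal change, not amounts. Technical replicates were averaged, then probes of 1 symbol from the platform annotation. A feature was tested (6515) if each group of 4 had at least 3 values and day 5 at least 2, with limma 3.58.1 in R 4.3.3, 1 mean per group over 15 samples, and Benjamini-Hochberg adjustment over all of them. The procedure was tested on simulated data. SD is over samples, SE and 95% intervals are from the fit. The number of arrays limits the precision. A p-value sets a difference against the spread between samples within groups, estimated over all groups and moderated across features.

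The 4 genes and the lists were chosen with earlier results of these data known. Named were the 4 genes, list genes that passed the test, all tested EGF ligands, Ipo11 cargoes, Pcp4 relatives and platelet markers, the 5 genes most alike each of the 4 by Pearson's r, and the neighbours in the order of day 1 changes. Egfr, Ctsg, Prtn3, F2, Kdr, Plvap, Flt1, Cdh5, Pecam1, Tek, Ngp, Cd177, Serpinb3a, Serpinb7 and Serpinb11 were named after their values were seen. Alternatives were quantile normalization, single technical replicates, other filters, the replicate block, array weights, a trended robust prior, 2-group fits and omission of each sample. Promoter sequences are from RefSeq.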

Additional observations from a re-analysis of the deposited data

Results flagged for a closer look

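Ereg in day 2 replicate 3 was 2.49, far from the other 3 day 2 samples, which lay between 0.43 and 0.69, with a gap of 0.872 of the group's range. Serpinb6a in the same sample was 1.99, against 0.41 to 0.62 in the others, a gap of 0.867. Of 12 groups of 4 samples examined over the 4 genes, these 2 were set apart in this way, where chance alone sets apart about 1 in 20 groups. The platelet marker mean of that sample was 3.10, the highest of day 2, and its neutrophil marker mean was -0.73, the lowest of day 2, against -0.09 to 0.14 in the other 3. Their part in the 2 values was not tested.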

How the results depend on the processing

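The day 1 differences of the 4 genes stayed above 0 in all alternatives run. Since this contrast chose the genes, that sign was likely beforehand and nothing is read from it. Quantile normalization gave the smallest day 1 differences for Ereg, Pcp4l1 and Ipo11 (1.44, 1.38 and 1.18). For Ipo11 that moved by more than the spread between replicates. Omitting 1 sample at a time gave 0.16 to 1.63 for Pcp4l1 at day 5 against untreated. For day 5 against day 2 it gave -0.68 to 0.07 for Ereg and -0.82 to 0.66 for Pcp4l1, and none of the 4 passed in any alternative. The count of related genes called was more easily moved. At day 1 it was 1, but 2 with quantile normalization, 5 with array weights or fits of the 2 groups compared, 0 with technical replicate 1 alone, no filter or the replicate block, and 0 to 3 on omitting a sample. At day 2 it was 8, but 5 with technical replicate 2 alone and 5 to 8 on omitting a sample. At day 5 against untreated it was 0, but 1 with quantile normalization or 2-group fits, 2 on complete features and 0 to 3 on omitting a sample. Between day 5 and day 2 it was 11, but 7 in 2-group fits. The cause was not tested. Same-numbered samples of different groups deviated from their group means with r between -0.346 and 0.217. Differently numbered samples were not set beside them, so these values cannot decide whether replicate numbers pair the samples. With the replicate block, Pcp4l1 differed by -0.08 between day 5 and day 2 and by 0.89 between day 5 and untreated samples, and 131 features were called at day 1, against 300 without it. All features called at day 1 numbered 865 with array weights, 578 in 2-group fits, 462 with quantile normalization and 163 with no filter. Features called between day 5 and untreated samples, 71 in all, numbered 34 in 2-group fits, 111 with quantile normalization and 116 on complete features, and those between day 5 and day 2, 1664, numbered 935 in 2-group fits.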
